A study of Yarrowia lipolytica with 4 samples.

Results

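Thiol redox and peroxide detoxification genes of the oil-storing yeast Yarrowia lipolytica were compared between a strain without SUR2 and its parent. SUR2 encodes the hydroxylase that acts on carbon C-4 of sphingoid bases, the backbones of sphingolipids. The genes were chosen by text: protein-coding rows of the transcript table whose annotation names thioredoxin, glutaredoxin, peroxiredoxin, catalase, superoxide, glutathione, peroxidase or oxidative stress. The text matched 36 of 6447 protein-coding genes, and 5 YCF1-like ABC transporter genes were left out, so 31 genes are described. The rule reads the annotation text alone, but the set was proposed with earlier results of these data known. They are 5 genes of superoxide dismutases and their copper chaperone, 3 catalases, 4 peroxidases, 3 glutaredoxins, 5 thioredoxin genes with thioredoxin reductase, 5 glutathione S-transferases and 4 other glutathione enzymes. The remaining 2 match only because their text mentions such a word: MET16, a reductase that depends on thioredoxin, and RSM26, a mitochondrial ribosomal protein with weak similarity to superoxide dismutases. Peroxiredoxin genes are described in other words in the annotation and are given further on.

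PO1f, the background of both strains, is a leucine and uracil auxotroph used in the laboratory. Both carry the KU70 disruption labelled ku70Δ::tc; Ku70 acts in the end joining of broken DNA. The parent (labelled WT) has this disruption alone and is therefore not an unmodified wild type. The other strain is ku70Δ::tc sur2Δ::LEU2, so the missing SUR2, the added LEU2 marker and any further difference between the strains cannot be told apart. Cells were taken at an OD600 of 0.8 from the rich medium YPD at 28 °C. Each strain had 2 libraries of polyadenylated RNA. Separate cultures are not stated in the labels, so a p-value here rests on the spread between libraries alone, and that spread may be technical.

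Superoxide dismutases turn superoxide into hydrogen peroxide and oxygen. Catalases, peroxiredoxins and other peroxidases then remove the peroxide, and peroxiredoxins and many peroxidases draw electrons from thioredoxin or glutathione. Thioredoxin reductase and glutathione reductase refill those pools from NADPH. Glutaredoxins use glutathione to reduce disulfides, and glutathione S-transferases attach glutathione to reactive or foreign compounds. In baker's yeast much of this set is controlled by the transcription factors Yap1 and Skn7, and in yeasts that oxidize fatty acids in peroxisomes, Yarrowia among them, catalase also removes the peroxide made there.

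The libraries held 8765729 to 16698719 counts. They came as a transcript table and a gene table, both with 1 parent and 1 deletion library, and are named here by strain and table. The deletion library of the gene table held the fewest counts and that of the transcript table the most. Levels are CPM, counts scaled to library size by trimmed mean factors, unless TPM, which also allow for gene length, are named. Where the CPM or reads of all 4 libraries stand in a row they are given in the order parent of the transcript table, parent of the gene table, deletion of the transcript table, deletion of the gene table. Whether both tables were counted in the same way is not stated, so differences in counting and differences between libraries of a strain cannot be told apart. Reads of SUR2 (YALI0_E17347g) numbered 1402 and 1319 in the parent libraries, while the deletion libraries had 0 and 0. The gene with the KU70 annotation (HDF1 in baker's yeast), YALI0_C08701g, had 89, 23, 52 and 14 reads, so reads of it were found in both strains, and which stretch the disruption takes out is not given in the sources used here. LEU2 (YALI0_C00407g) had 1532, 2400, 1040 and 1528 reads, or 89.4, 203, 60.7 and 156 CPM; the strains overlapped, and in each table the strain with the added marker had the lower value. Over all genes, edgeR's quasi-likelihood test called 75 of 6051 at an adjusted p under 0.05, which is 1.24%. Of these, 60 were higher (0.992%) and 15 lower (0.248%) in the deletion strain. A fit with 1 library left out takes its spread from the strain that keeps both libraries. A p-value or a call from such a fit does not measure the spread within the other strain.

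In the parent, the redox genes spanned a range from near-silent to among the most abundant transcripts, and 22 of the 31 had a mean TPM above the median of all tested genes, 27.7. TRX2 (YALI0_F01496g), a small thioredoxin that hands electrons to many enzymes, was highest of the set with a mean of 1520 TPM, at the 97.9th percentile of tested genes. SOD1 (YALI0_E12133g), the copper-zinc superoxide dismutase, followed at 966 TPM. The microsomal glutathione S-transferase gene YALI0_E19745g stood at 931 TPM and the mitochondrial manganese superoxide dismutase gene YALI0_B08921g at 518 TPM. At the low end were the ascorbate peroxidase-like gene YALI0_D25366g (0.415 TPM), the catalase gene YALI0_E34265g (0.78 TPM) and the thioredoxin gene YALI0_E09427g (0.9 TPM). The transcript and the gene table were normalized separately, so these TPM means only place genes within the set. The main comparison of strains is on counts. TPM are set beside it as an alternative, with limma, where the median log2 fold change of all genes was 0.40.

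**Figure D1:**
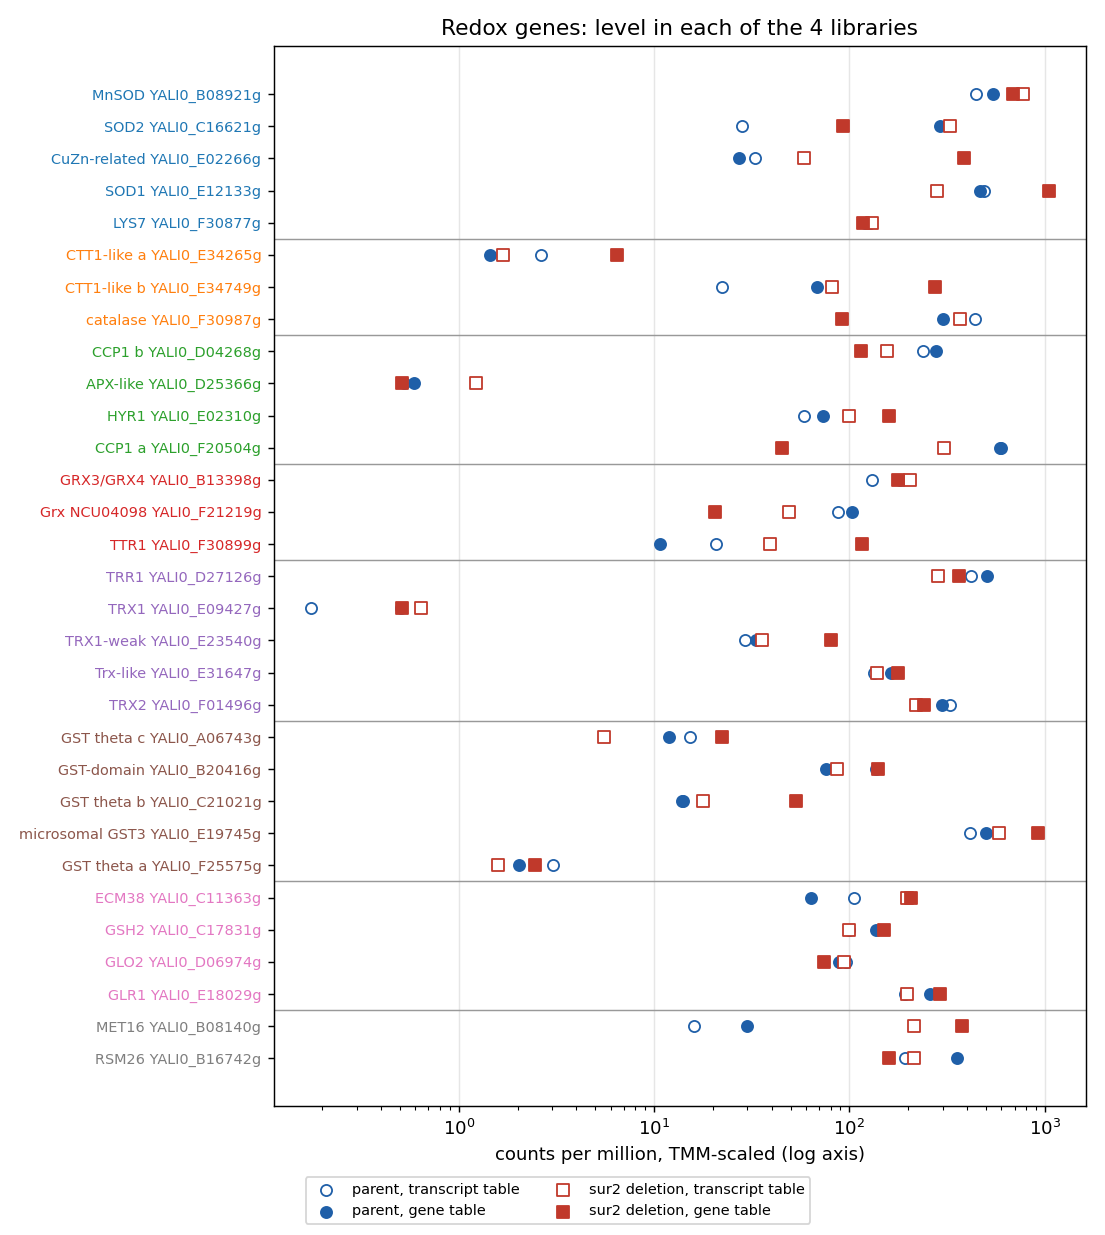
TMM-scaled CPM (log axis) of the 31 redox genes in each of the 4 libraries, grouped by family with lines between families. Circles are the parent and squares the sur2 deletion strain, open for the transcript table and filled for the gene table; MET16 is the gene whose 2 deletion squares lie farthest to the right of its parent circles.

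Of the 31 genes, 29 had enough reads to be tested, and 1 passed: MET16 was higher in the deletion strain. The other 28 did not pass, and 0 passed in the lower direction. Without MET16 and RSM26, which match by their text alone, 0 of 27 tested genes passed. At an unadjusted p under 0.05 there were 9 of 29, 7 of them higher and 2 lower, beside 12.4% of all tested genes (8.4% higher, 4.03% lower). The median log2 fold change of the 29 was 0.11, beside 0.03 over all tested genes, with single genes from -1.76 to 3.70. The groups of libraries did not overlap for 10 genes with the deletion strain higher and for 5 with it lower. Over all tested genes these shares were 22.1% and 20.2%. Log2 fold changes were above 0 for 20 genes and below 0 for 9, where 52% of all tested genes were above 0. In the superoxide dismutase group 5 of 5 were above 0, although SOD1, SOD2 and LYS7 changed sign under some of the alternatives, and each of the other families had tested genes on both sides of 0.

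MET16 (YALI0_B08140g, chromosome B, 1086172 to 1086939) had 274 and 352 reads in the parent libraries and 3663 and 3700 in the deletion libraries. Its enzyme, phosphoadenylylsulfate (PAPS) reductase, takes electrons from thioredoxin to make sulfite, a step of sulfate assimilation toward cysteine and methionine. It stood at 16 and 29.8 CPM in the parent and at 214 and 379 CPM in the deletion strain. Both deletion libraries lay far above both parent libraries. The means were 22.9 ± 9.75 and 296 ± 116 CPM (SD, n = 2), a 13-fold rise (log2 fold change 3.70 ± 0.50 SE, adjusted p = 0.018, edgeR). The difference was alike in the tables, with log2 values of 3.73 (transcript table) and 3.66 (gene table). In TPM it went from 16.7 and 23.6 to 236 and 504. Its adjusted p was 0.497 or 0.471 when either parent library was left out (that of the transcript table first), although the log2 fold change was then 3.27 or 4.21; in both cases edgeR called 0 genes in all, with 414 and 361 at an unadjusted p under 0.05.

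**Figure D2:**
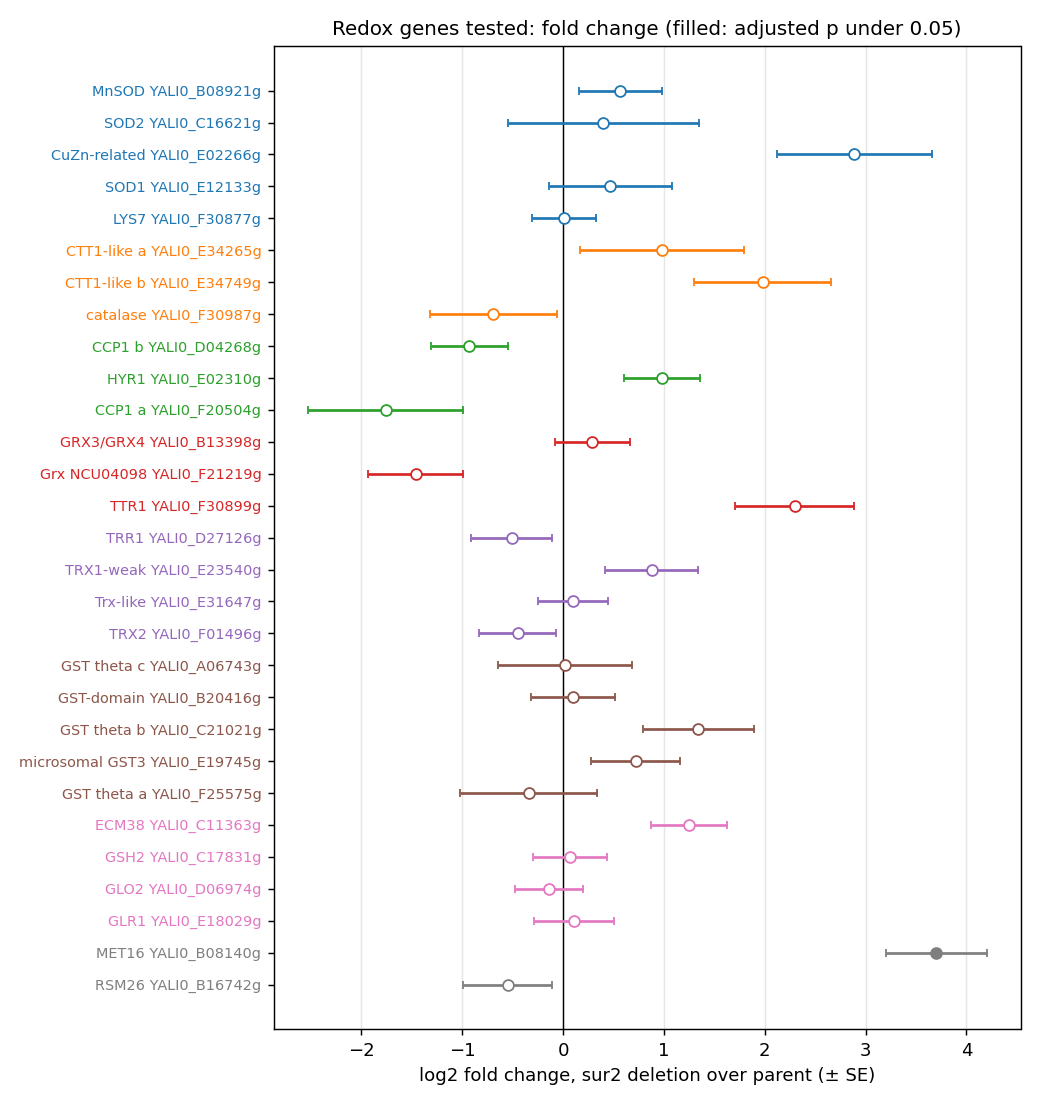
Log2 fold change of the sur2 deletion strain over the parent for the 29 redox genes tested, with standard errors from edgeR, coloured by family. The single filled point, MET16 at 3.70, passed an adjusted p of 0.05; open points did not, and they run from -1.76 to 2.89.

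The superoxide dismutase group had 5 tested members, of which 0 passed and 1 was at an unadjusted p under 0.05. YALI0_E02266g (chromosome E, 248871 to 249605), weakly similar to a copper-zinc superoxide dismutase, stood at 33, 27.1, 58.8 and 387 CPM. Both deletion libraries were above both parent libraries, but the gene table's deletion library was 6.59 times the other one. The log2 fold change was 2.89 ± 0.77 (adjusted p = 0.157, edgeR), and it was 0.97 without that library. With DESeq2 the adjusted p was 5.12e-04 and with limma on TPM 0.041, and with edgeR and a term for the table it was 0.184. SOD1 (chromosome E, 1474042 to 1474802) stood at 490, 466, 282 and 1046 CPM: the parent libraries were close, and the deletion libraries lay on either side of them (log2 fold change 0.47 ± 0.61, adjusted p = 0.849, edgeR). Without the gene table's deletion library that value was -0.76.

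The mitochondrial dismutases convert superoxide made by the respiratory chain, and both genes were abundant. YALI0_B08921g (chromosome B, 1221137 to 1221826) stood at 443, 541, 770 and 691 CPM, with both deletion libraries above both parent libraries (log2 fold change 0.57 ± 0.41, adjusted p = 0.661, edgeR). The other, annotated as SOD2 (YALI0_C16621g, chromosome C, 2342810 to 2343704), was singled out after its values were seen. It stood at 28.3, 290, 327 and 93.1 CPM, so the parent libraries differed 10.3-fold and the order of the strains was opposite in the tables, with log2 differences of 3.52 (transcript table) and -1.64 (gene table). Its log2 fold change was 0.40 ± 0.95 (adjusted p = 0.926, edgeR). Copper is loaded into SOD1 by the chaperone LYS7 (YALI0_F30877g, chromosome F, 3853279 to 3854067), which stood at 120, 127, 131 and 117 CPM, the most even of the group, with a log2 fold change of 0.01 ± 0.32.

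Of the catalases, which split hydrogen peroxide without a cofactor from the thiol pools, 0 of 3 passed. The genes differed from one another in level and direction. YALI0_F30987g (chromosome F, 3862638 to 3864342), similar to a catalase of Emericella nidulans, was the most abundant in the parent, at 438 and 301 CPM, and stood at 366 and 91.7 CPM in the deletion strain. The groups overlap, and the log2 fold change was -0.69 ± 0.63 (adjusted p = 0.757, edgeR). Leaving out the gene table's deletion library gave -0.02, and leaving out that of the transcript table gave -2.01.

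YALI0_E34749g (chromosome E, 4141316 to 4142914), similar to the cytosolic catalase CTT1 of baker's yeast, stood at 22.3, 67.9, 81.8 and 274 CPM. Both deletion libraries were above both parent libraries, and each was above the parent of its own table by nearly the same amount, 1.87 and 2.01 on the log2 scale. Its log2 fold change was 1.98 ± 0.68 (adjusted p = 0.272, edgeR). With the table as a term in edgeR's model it passed, at an adjusted p of 0.0416 with a log2 fold change of 1.94, and with DESeq2 at 0.0346. With limma on TPM it did not pass (adjusted p = 0.0644). Its log2 fold change was 0.86 when the gene table's deletion library was left out and 3.00 when its parent library was. The gene is the 18th protein-coding gene from the right end of chromosome E. A second CTT1-like gene, YALI0_E34265g (chromosome E, 4072258 to 4073856), had 45, 17, 29 and 63 reads, or 2.63, 1.44, 1.69 and 6.45 CPM (log2 fold change 0.98 ± 0.81, adjusted p = 0.722, edgeR).

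**Figure D3:**
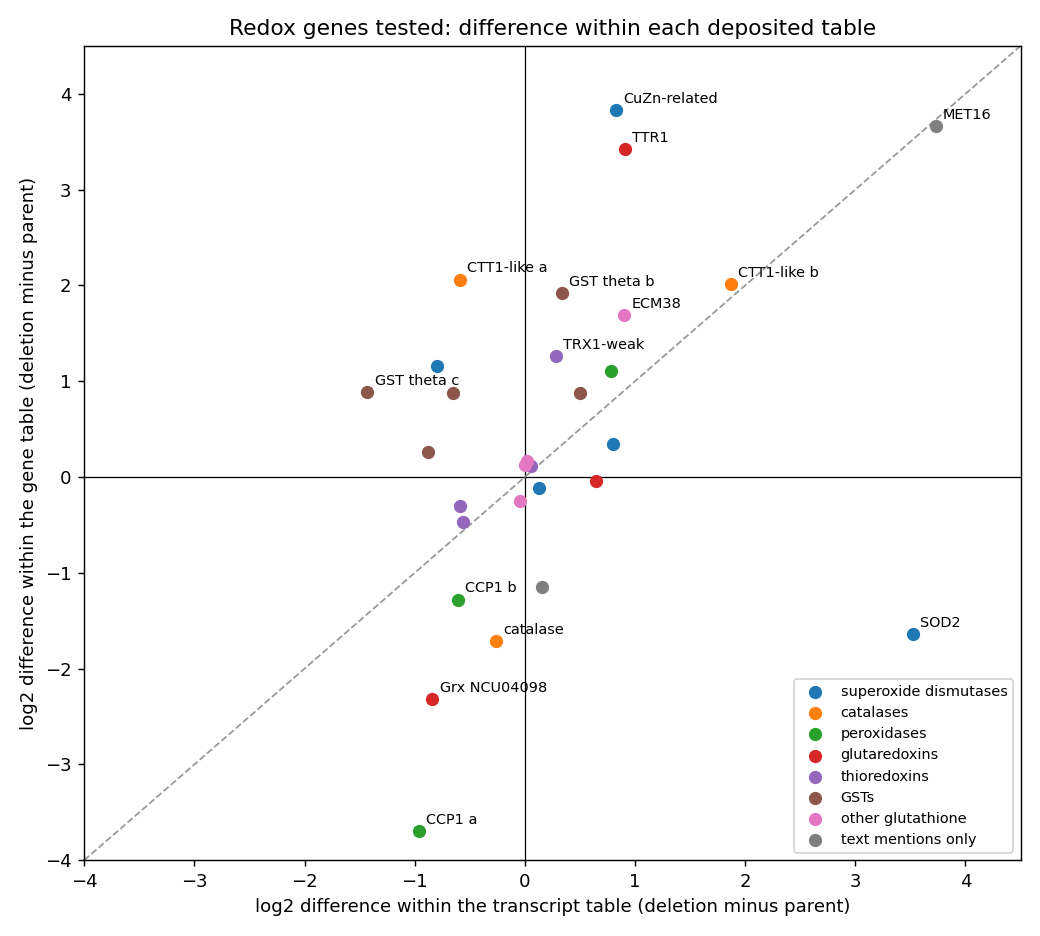
Log2 difference between the deletion and the parent library within the transcript table (horizontal) and within the gene table (vertical) for the 29 redox genes tested, from log2 CPM with a prior count of 2; the dashed line marks equal differences. MET16 (3.73 and 3.66) and the catalase gene YALI0_E34749g, written CTT1-like b (1.87 and 2.01), lie near the line. The superoxide dismutase-related gene YALI0_E02266g (CuZn-related) and TTR1 lie well above it, and CCP1 a lies below it. SOD2 and YALI0_E34265g (CTT1-like a) are among the genes in the quadrants of opposite signs. Of the 29 genes, 19 have the same sign in both tables.

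Among the peroxidases 3 of 4 genes were tested and 0 passed. Cytochrome c peroxidase reduces peroxide in mitochondria with electrons from cytochrome c, and 2 genes are annotated as CCP1. YALI0_F20504g (chromosome F, 2727200 to 2728222; CCP1 a in the plots) stood at 594 and 591 CPM in the parent and at 305 and 45.4 CPM in the deletion strain. The parent libraries were nearly equal and both deletion libraries lay below them, 6.7-fold apart from each other. The log2 fold change was -1.76 ± 0.77 (adjusted p = 0.404, edgeR). With the transcript table's deletion library left out it was -3.71, and it was -0.96 without that of the gene table. YALI0_D04268g (chromosome D, 533256 to 534113; CCP1 b) stood at 238, 276, 156 and 114 CPM, again with both deletion libraries below both parent libraries (log2 fold change -0.93 ± 0.38, adjusted p = 0.354, edgeR).

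HYR1 (YALI0_E02310g, chromosome E, 255377 to 255883), a glutathione peroxidase-like enzyme whose baker's yeast counterpart also senses peroxide for Yap1, had the opposite order. It stood at 58.2 and 73.3 CPM in the parent and at 100 and 159 CPM in the deletion strain. The groups do not overlap (65.8 ± 10.7 against 129 ± 41.3 CPM, SD, n = 2), and the log2 fold change of 0.98 ± 0.38 did not pass (adjusted p = 0.325, edgeR). Leaving out the gene table's deletion library gave 0.61. HYR1 and the superoxide dismutase-related gene YALI0_E02266g lie near each other on chromosome E, 5771 bases apart with 1 gene between them. The ascorbate peroxidase-like gene YALI0_D25366g had 9, 7, 21 and 5 reads and was not tested.

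The 3 glutaredoxin genes differed in direction, and 0 passed. The gene called TTR1 here (YALI0_F30899g, chromosome F, 3854121 to 3854516) is only weakly similar to a dithiol glutaredoxin of baker's yeast. Another gene, YALI0_C05467g, is annotated as similar to the baker's yeast glutaredoxin YDR513W without that limit and is given further on. TTR1 stood at 20.8 and 10.7 CPM in the parent and at 39.4 and 116 CPM in the deletion strain. Both deletion libraries were above both parent libraries, the gene table's by far the most. The log2 fold change was 2.30 ± 0.59 (adjusted p = 0.144, edgeR), with differences of 0.91 within the transcript table and 3.42 within the gene table. With DESeq2 it passed at an adjusted p of 0.0025 and with limma on TPM at 0.017, but not with edgeR and a term for the table (0.153). It was 1.32 in log2 fold change once the gene table's deletion library was left out. TTR1 lies next to LYS7 with 53 bases between their ends on opposite strands, and the strand setting of the counting is not given in the sources used here, so how reads past the ends of these genes were shared is unknown.

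YALI0_F21219g (chromosome F, 2815214 to 2815669), similar to a probable glutaredoxin of Neurospora crassa, lay on the other side. It stood at 87.6 and 103 CPM in the parent and at 48.8 and 20.5 CPM in the deletion strain, so both deletion libraries were below both parent libraries (95.3 ± 10.9 against 34.6 ± 20 CPM, SD, n = 2). The log2 fold change was -1.46 ± 0.47 (adjusted p = 0.243, edgeR). DESeq2 gave an adjusted p of 0.0481, and limma on TPM gave 0.174. The log2 fold change was -2.22 when the transcript table's deletion library was left out and -0.97 when that of the gene table was. YALI0_B13398g (chromosome B, 1806292 to 1807044) is similar to GRX3 and GRX4, which in baker's yeast take part in iron sensing. It stood at 131, 182, 205 and 177 CPM, with overlapping groups (log2 fold change 0.29 ± 0.37, adjusted p = 0.845, edgeR).

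Thioredoxins and thioredoxin reductase had log2 fold changes between -0.51 and 0.88: 4 of 5 were tested, 0 passed, and 0 had an unadjusted p under 0.05. TRX2 (chromosome F, 231032 to 231346) stood at 328 and 298 CPM in the parent and at 218 and 242 CPM in the deletion strain. The groups do not overlap, with the deletion strain lower, and the log2 fold change was -0.45 ± 0.38 (adjusted p = 0.728, edgeR); on the TPM scale it was 0.03, where the median of all genes was 0.40. Thioredoxin reductase TRR1 (YALI0_D27126g, chromosome D, 3608891 to 3609850), which recharges thioredoxin from NADPH, stood at 419, 506, 284 and 365 CPM, likewise lower in both deletion libraries (log2 fold change -0.51 ± 0.40, adjusted p = 0.701, edgeR). YALI0_E23540g (chromosome E, 2773051 to 2773650), weakly similar to thioredoxin, stood at 29.3, 33.4, 35.5 and 80.3 CPM, higher in both deletion libraries (log2 fold change 0.88 ± 0.46, adjusted p = 0.504, edgeR). Leaving out the gene table's deletion library gave a log2 fold change of 0.18, and leaving out that of the transcript table gave 1.35. The thioredoxin-like gene YALI0_E31647g had a log2 fold change of 0.10 ± 0.35. The gene annotated as TRX1 (YALI0_E09427g) had 3, 6, 11 and 5 reads and was not tested.

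Among the 5 glutathione S-transferase genes 0 passed and 1 was at an unadjusted p under 0.05. That one was the theta class gene YALI0_C21021g (chromosome C, 2815693 to 2816364), which stood at 13.9, 14, 17.7 and 53.2 CPM. Its parent libraries were level, and the excess in the deletion strain came mostly from the gene table's library (log2 fold change 1.34 ± 0.55, adjusted p = 0.365, edgeR, and 0.34 without that library). Leaving out the transcript table's deletion library gave 1.93. The microsomal transferase gene YALI0_E19745g (chromosome E, 2356906 to 2357364) was far more abundant, at 412 and 501 CPM in the parent and 582 and 923 CPM in the deletion strain. Its groups do not overlap (log2 fold change 0.72 ± 0.44, adjusted p = 0.596, edgeR), and the value was 0.35 once the deletion library of the gene table was left out. The remaining 3, YALI0_A06743g, YALI0_B20416g and YALI0_F25575g, had overlapping groups and log2 fold changes of 0.02 ± 0.66, 0.10 ± 0.42 and -0.34 ± 0.68.

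The 4 other glutathione enzymes, which make, recycle or break down glutathione and its adducts, also held 0 genes past the test. ECM38 (YALI0_C11363g, chromosome C, 1571495 to 1573471), the gamma-glutamyltransferase that starts the breakdown of glutathione, stood at 106 and 63.9 CPM in the parent and at 198 and 207 CPM in the deletion strain. The groups do not overlap and the deletion libraries were nearly equal (85.1 ± 29.9 against 203 ± 6.28 CPM, SD, n = 2). The log2 fold change was 1.25 ± 0.38 (adjusted p = 0.217, edgeR). Glutathione reductase GLR1 (YALI0_E18029g, chromosome E, 2127672 to 2129084) stood at 193, 258, 196 and 291 CPM. Glutathione synthetase GSH2 (YALI0_C17831g) stood at 99.8, 137, 99.8 and 150 CPM. For both, each deletion library was close to the parent library of its own table, and the log2 fold changes were 0.11 ± 0.40 and 0.07 ± 0.37. Glyoxalase II GLO2 (YALI0_D06974g, chromosome D, 894533 to 895309), which frees glutathione in methylglyoxal removal, stood at 96.3, 88.5, 93.7 and 74.2 CPM (log2 fold change -0.14 ± 0.34, adjusted p = 0.93, edgeR). Without the transcript table's parent library or the gene table's deletion library GLR1 was at -0.13 or -0.21, and GLO2 was at 0.02 without the latter and at 0.26 on the TPM scale.

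RSM26 (YALI0_B16742g, chromosome B, 2202238 to 2203020), the ribosomal protein that matched by its text, stood at 193, 355, 215 and 160 CPM with overlapping groups (log2 fold change -0.55 ± 0.44, adjusted p = 0.706, edgeR).

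The gene table gave the larger differences. Of the 29 tested genes, 20 differed more in it than in the transcript table, beside 60.9% of all tested genes, and 19 had the same sign in both, beside 57.5%. The median log2 difference of the redox genes was 0.26 in the former and 0.06 in the latter, beside 0.04 and -0.01 over all tested genes. DESeq2 called 5 of the redox genes: MET16, YALI0_E02266g, TTR1 and the catalase gene YALI0_E34749g as higher, and the glutaredoxin gene YALI0_F21219g as lower. Over all genes it called 6.32%, 4.3% higher and 2.02% lower. Limma on TPM called 3, MET16, YALI0_E02266g and TTR1, all higher, where 3.33% of all genes were called, 2.97% higher. With the table as a term edgeR called MET16 and the catalase gene YALI0_E34749g, both higher, where it called 2.4% of all genes, 1.85% higher. Without the transcript table's deletion library 9 were called, 6 higher and 3 lower, where 11.2% of all genes were called, 7.31% higher and 3.92% lower.

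Some enzymes of these families are described in other words and were missed by the text rule; they were added after the annotation had been read, and 0 of the 5 passed. Peroxiredoxins reduce peroxide with electrons from thioredoxin. TSA1 (YALI0_B15125g), the main cytosolic peroxiredoxin of baker's yeast, stood at 706, 950, 353 and 689 CPM, lower in both deletion libraries (log2 fold change -0.67 ± 0.48, adjusted p = 0.664, edgeR). YALI0_A19426g, similar to a thiol-specific antioxidant enzyme, stood at 59.7, 107, 168 and 919 CPM, higher in both deletion libraries and most so in the gene table's (log2 fold change 2.71 ± 0.77, adjusted p = 0.184, edgeR). With DESeq2 its adjusted p was 9.95e-04 and with limma on TPM 0.0225, with alternatives spanning 5.61e-10 to 0.847, and its log2 fold change was 1.01 once the deletion library of the gene table was left out. The gene called AHP1 here (YALI0_E25091g) is weakly similar to the alkyl hydroperoxide reductase AHP1 of baker's yeast. It stood at 167, 168, 104 and 353 CPM, with the deletion libraries on either side of the parent. GSH1 (YALI0_E30129g), the ligase that starts glutathione synthesis, stood at 183, 223, 172 and 203 CPM (log2 fold change -0.11 ± 0.36). A further glutaredoxin gene, YALI0_C05467g, is annotated as similar to the baker's yeast glutaredoxin YDR513W. It stood at 41.9, 76, 33.1 and 73.4 CPM (log2 fold change -0.15 ± 0.49).

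The genes that feed these systems were taken as lists by annotation text, and edgeR called 0 in each of them. The lists were chosen with earlier results of these data known, so their medians and shares are description only. In NADPH supply, IDP2 (YALI0_F04095g), an isocitrate dehydrogenase that makes NADPH, stood at 1457, 1822, 843 and 726 CPM, lower in both deletion libraries (log2 fold change -1.06 ± 0.43, adjusted p = 0.359, edgeR). ZWF1 (YALI0_E22649g), the enzyme that opens the pentose phosphate pathway, stood at 319, 348, 465 and 802 CPM, higher in both (log2 fold change 0.92 ± 0.45, adjusted p = 0.468, edgeR). The 7 genes of cysteine and sulfur assimilation had a median log2 fold change of 0.63, with 3 at an unadjusted p under 0.05, all higher, where 8.4% of all tested genes were. One gene of the list was lower in both deletion libraries: CYS4 (YALI0_E09108g), which joins serine and homocysteine into cystathionine and was named after its values were seen, stood at 410, 754, 375 and 312 CPM (log2 fold change -0.76 ± 0.46, adjusted p = 0.587, edgeR). Among the higher ones was the sulfite reductase subunit MET10 (YALI0_E16368g), the step after MET16, at 103, 129, 171 and 521 CPM (log2 fold change 1.58 ± 0.55, adjusted p = 0.279, edgeR). Leaving out a deletion library gave 0.56 (that of the gene table) or 2.16 (that of the transcript table). Next by p was YALI0_C22088g, related to cystathionine gamma-synthases, at 36.9, 50.8, 62.9 and 162 CPM (log2 fold change 1.36 ± 0.49, adjusted p = 0.294, edgeR). Leaving out the same libraries gave 0.52 and 1.88.

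Alternative oxidases, old yellow enzymes and quinone reductases form a list of 13 genes, 11 of them tested, with a median log2 fold change of 1.27. The list had 7 genes at an unadjusted p under 0.05, all higher in the deletion strain, where 8.4% of all tested genes were. It had 9 with the deletion libraries above the parent libraries, where 22.1% of all tested genes were. As the list was chosen with earlier results of these data known, these shares describe it and do not test it. The alternative oxidase passes electrons from ubiquinone to oxygen past the cytochromes. Of its 2 genes only YALI0_D09933g had enough reads for a test, and its log2 fold change was below 0. That gene was named after its values were seen. The other, YALI0_E00814g, had 2, 1, 4 and 10 reads, too few for a test, with both deletion libraries above both parent libraries in CPM. YALI0_D09933g stood at 18.7, 42.2, 7.65 and 21.6 CPM with overlapping groups (log2 fold change -1.06 ± 0.61, adjusted p = 0.562, edgeR). The value was -1.99 with the deletion library of the gene table left out. The quinone reductase gene YALI0_E14366g stood at 40.3, 36, 105 and 155 CPM (log2 fold change 1.77 ± 0.37, adjusted p = 0.078, edgeR). The old yellow enzyme gene YALI0_A01485g, whose product reduces activated double bonds with NADPH, stood at 5.48, 6.17, 26.3 and 24.2 CPM. Its libraries agreed closely within each strain (log2 fold change 2.11 ± 0.45, adjusted p = 0.0835, edgeR). Both genes passed with DESeq2 (adjusted p = 0.00177 and 0.00174) and with limma on TPM (0.0107 and 0.0477). They did not pass with edgeR and a term for the table (0.0689 and 0.0587).

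Methionine sulfoxide reductases, which repair oxidized methionine, and metallothioneins, which bind metals, were 15 genes, and 7 had enough reads for a test. Of these 3 were higher and 2 lower at an unadjusted p under 0.05, where 8.4% and 4.03% of all tested genes were. The reductase gene YALI0_B03916g stood at 4.14, 5.24, 7.83 and 52.8 CPM (log2 fold change 2.69 ± 0.83, adjusted p = 0.22, edgeR), so most of its difference lay in 1 library, without which it was 0.74. DESeq2 called it (adjusted p = 0.00841) and limma on TPM did not (0.109). The metallothionein gene YALI0_C22394g had 31, 9, 93 and 100 reads (log2 fold change 2.58 ± 0.73, adjusted p = 0.184, edgeR). It passed with DESeq2 (adjusted p = 0.032) and with limma on TPM (0.00153), but not with edgeR and a term for the table (0.142). The 2 lower genes are also metallothioneins. YALI0_F11275g had 122, 65, 49 and 7 reads (log2 fold change -1.78 ± 0.77, adjusted p = 0.399, edgeR). YALI0_F26213g had 39, 12, 9 and 2 reads (log2 fold change -2.09 ± 0.87, adjusted p = 0.373, edgeR). The last metallothionein gene tested, YALI0_C15237g, was at -0.34 ± 1.18. Several metallothionein genes are close copies, and how reads were divided between them is unknown. The 3 genes of disulfide formation in the endoplasmic reticulum, where oxidizing equivalents also yield peroxide, had overlapping groups and log2 fold changes from 0.40 to 0.44. YALI0_D09603g, weakly similar to ERO1 of baker's yeast, stood at 61.3, 96.1, 83.2 and 127 CPM. The isomerase-related gene YALI0_E02420g stood at 130, 178, 152 and 266 CPM.

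**Figure D4:**
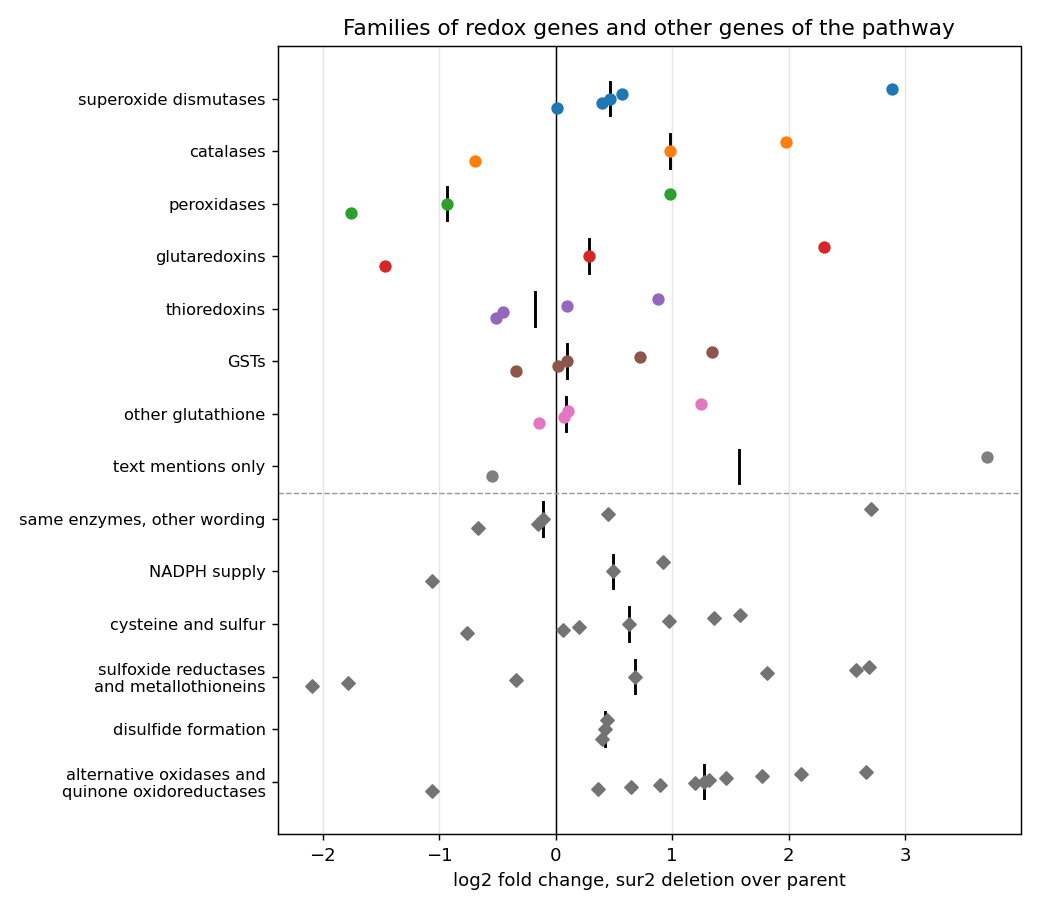
Log2 fold change of the sur2 deletion strain over the parent for each tested gene of the redox families (coloured circles) and of the other lists of the pathway (grey diamonds), with a bar at the median of each group. Alternative oxidases, old yellow enzymes and quinone reductases have a median of 1.27, with 10 of 11 genes above 0 and 1 below. Over all tested genes 52% are above 0. Every redox family except the superoxide dismutase group also has tested genes on both sides of 0. The lists were chosen with earlier results of these data known.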

How the data were processed

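The labels' protocols name the TruSeq Stranded mRNA kit for the libraries. Read counts and TPM per gene or transcript are the authors' values, as the file headers name them; 4 further columns, the deposited RPKM, were not used. Genome build, aligner, counter and strand setting: not given in the sources used here. Coordinates are those of the deposited tables. Column names show the strain and no replicate number. The counts of both tables were joined by gene identifier: 8381 features were in both and 1 is not used here. The libraries of each strain differed beyond sampling noise (chi-square divided by its degrees of freedom, 144.8 for the parent and 292.8 for the deletion strain).

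Counts were tested with edgeR 4.0.16 (R 4.3.3): filterByExpr by strain, trimmed mean factors of 0.8462 to 1.115, quasi-likelihood test on strain alone, two-sided, Benjamini-Hochberg adjustment over all 6051 genes, threshold 0.05. The standard error is the log2 fold change divided by the square root of F. A count of 0 allows 3 counts, 0.175 to 0.307 CPM on the scaled library sizes, for counting error only. Alternatives were DESeq2 1.42.0, relative log expression factors, no filter beyond 1 read, limma 3.58.1 on log2(TPM + 1) and log2(TPM + 0.1) for genes with a mean of at least 1 TPM, a model term for the table, and each library left out. The TPM of the tables were normalized separately, and fold changes on the log2(TPM + 1) scale understate those of low genes. The naming rule takes genes past the threshold, the most abundant and the 2 of smallest p per family, and the 2 of smallest p per other list. Values of further members, SOD2 and LYS7 among them, fall outside it. So do those of CYS4, the alternative oxidase genes and the metallothionein genes below 0. Members and lists were chosen with earlier results of these data known. The supplied gene table is of another assembly and was not used.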

Additional observations from a re-analysis of the deposited data

How the results depend on the processing

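Calls depended strongly on the setting. Genes called over all genes numbered 75 (60 higher, 15 lower) in the main test. They were 388 (264 and 124) with DESeq2, 196 (175 higher) and 212 (190 higher) with limma at a pseudocount of 1 and 0.1, 145 (112 and 33) with a term for the table, and 0 to 685 (0 to 446 higher, 0 to 239 lower) with 1 library left out. Redox genes called higher numbered 1 in the main test, 4 with DESeq2 (1 lower), 3 with either limma setting, 2 with a term for the table and 0 to 6 (0 to 3 lower) with 1 library left out. MET16, which matched by its text alone, is the gene called in the main test. The median log2 fold change of the redox genes was 0.11 in the main test and 0.26 with DESeq2. It was 0.57 with either limma setting, 0.29 without the filter, and 0.02 to 0.44 with 1 library left out. That of all genes, 0.03, was 0.40 and 0.43 with limma, an upward shift of TPM values to be set beside the other limma values, and -0.05 to 0.06 with 1 library left out.

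Of 410 values for 41 named genes under the alternatives, 345 kept direction and side of the threshold, 39 passed that had not, 2 no longer passed, both of MET16 with a parent library left out, and 24 changed sign, none of a called gene. Leaving out the gene table's deletion library moved the log2 fold change of 29 of the 41 by over 1.5 times or across 0, and leaving out the transcript table's moved 18; the parent libraries moved 11 (transcript table) and 14 (gene table). With 1 library left out, log2 fold changes ran from -0.83 to 0.35 for YALI0_C05467g, -0.78 to 2.89 for SOD2 (YALI0_C16621g), -0.32 to 0.02 for GLO2 (YALI0_D06974g), -0.02 to 0.78 for YALI0_E02420g and -0.76 to 1.12 for SOD1 (YALI0_E12133g). They ran from -0.21 to 0.36 for GLR1 (YALI0_E18029g), -0.69 to 1.07 for AHP1 (YALI0_E25091g), -0.29 to 0.04 for GSH1 (YALI0_E30129g), -0.27 to 1.65 for YALI0_E34265g and -0.08 to 0.09 for LYS7 (YALI0_F30877g). With limma at 1 and 0.1 the values were 0.28 and 0.28 for YALI0_C05467g, 0.26 and 0.27 for GLO2, 0.29 and 0.29 for GSH1 and 0.03 and 0.03 for TRX2 (YALI0_F01496g). LYS7 was at -0.02 with DESeq2 and -0.01 with relative log expression factors. Outside the 41, values over the alternatives crossed 0 for GSH2 (-0.25 to 0.47), YALI0_A06743g (-1.29 to 0.70) and YALI0_B20416g (-0.30 to 0.53). The same held for YALI0_F25575g (-0.69 to 0.08), YALI0_E31647g (-0.09 to 0.50) and YALI0_C15237g (-3.64 to 0.69). YALI0_F11275g and YALI0_F26213g, also outside the 41, stayed below 0. The cause of these changes of sign was not tested. A lone library is assumed to vary like the other strain's. No paired analysis was possible by replicate number, because the columns carry none; the term for the table sets the libraries of 1 table against each other, and with it the catalase gene YALI0_E34749g passed beside MET16. With 2 libraries a strain, a gene that did not pass is not shown to be unchanged.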
